A study of Mus musculus with 12 samples.

Results

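The response of the sciatic nerve to transection was read in mice whose Schwann cells lack the transcription factor Tfeb and whose whole body lacks its relative Tfe3 (Tfeb/3 SC-dKO, dKO below). Distal nerve taken 5 days after the cut (5DPI, 3 libraries, replicates 2, 3 and 4) was set against uncut nerve of the opposite side (3 libraries, replicates 2, 3 and 4). These are 6 of the 12 libraries of the study, chosen by their titles, and they were described across all genes from raw counts. The dKO mice are Dhh-Cre+:Tfebflox/flox;Tfe3KO. The other 6 libraries come from controls, Dhh-Cre-:Tfebflox/flox;Tfe3+, 3 of intact nerve and 3 of nerve 5 days after the same operation, and served as a check and to show where the response of dKO nerve differed. Controls also carry the floxed Tfeb alleles, but no Cre. The labels name no age, sex or strain background. Dhh-Cre acts in the Schwann cell lineage, so Tfeb remains in cells outside it, such as macrophages, while Tfe3 is lost from every cell. Whether nerve fibroblasts keep Tfeb was not tested. The epineurium, the outer sheath, was stripped from intact nerves only, and about 1 mm next to the cut was discarded.

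Cutting a nerve separates the distal axons from their cell bodies, and the axons break down. Schwann cells then stop making myelin, switch on a repair programme led by the transcription factor Jun, divide, digest myelin debris by autophagy, recruit macrophages and secrete factors that keep injured neurons alive. Tfeb and Tfe3 belong with Mitf and Tfec to the MiT/TFE family of basic helix-loop-helix factors. They are held in the cytoplasm by mTORC1 at the lysosome and, once released, bind the CLEAR element in promoters of genes for lysosomal enzymes, the proton pump and autophagy. The design asks what their loss does to the making of repair Schwann cells.

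Expression is given in CPM, a gene's share of the library's counts on a common scale, with library sizes scaled by TMM factors, and changes are log2 ratios of injured over intact dKO nerve with their standard error (SE) from edgeR's quasi-likelihood test. A gene is said to rise or fall where its Benjamini-Hochberg adjusted p over all genes tested was under 0.05. The 6 dKO libraries held between 15430999 and 35845371 counts, the lowest being injured replicate 4. A total of 3 counts, below which a level cannot be told from 0, corresponds to 0.0915 to 0.115 CPM in the intact and 0.0833 to 0.173 CPM in the injured libraries. All 3 injured dKO libraries belonged, with injured control replicate 4, to a second library set that carried reads from 174 to 384 olfactory receptor genes at equal depth, against 51 to 78 in the other 8 libraries. Within dKO nerve the library set and the injury therefore cannot be told apart. A fit with a term for the set, estimated from the injured control libraries, is given beside the results. That term sets injured control replicate 4 against the other injured control libraries, so it rests on a single library of the second set and is imprecise. Where a call was lost with it, an effect of the set and a loss of precision cannot be told apart. Injured control replicate 1 held 10712 counts of Xist, the RNA of the inactive X chromosome, against 0 to 23 in the other 11 libraries, and is called the female library. Whole nerve was measured, so fewer cells of a type and less RNA per cell cannot be told apart either.

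Reads of Tfeb (GRCm38 chromosome 17, 47737030 to 47792419) stood at 17.0, 19.5 and 17.3 CPM in intact nerve and 14.2, 19.6 and 29.8 CPM in injured nerve, and those of Tfe3 (chromosome X, 7762560 to 7775202) at 46.4, 47.4 and 43.3 CPM in intact nerve and 52.4, 53.8 and 49.5 CPM in injured nerve. Neither gene passed the injury test (adjusted p = 0.404 and 0.14). A count summed along all exons does not reveal a deleted exon, so these levels check neither deletion. Dhh, the Schwann cell ligand whose promoter drives the Cre, was read at 442, 470.3 and 492 CPM in intact nerve and 204, 229 and 207 CPM in injured nerve and fell (log2 change -1.14, SE 0.15, adjusted p = 2.29e-05). With a set term, the call of Dhh was lost.

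Transection changed 9997 of the 22384 genes tested in dKO nerve (44.7%). There were 4930 rises (22%) and 5067 falls (22.6%), and the median log2 change of all tested genes was 0.05. Among the lists described below, 37 of 38 mitotic genes and 18 of 21 macrophage markers rose, while 28 of 32 myelin genes and 22 of 24 genes of cholesterol synthesis fell. A change of at least 2-fold was seen for 2859 rising and 2059 falling genes, and one of at least 16-fold for 197 and 102. With the library set in the model 2146 genes were called higher (9.59%) and 2153 lower (9.62%), and 4000 genes were called in the same direction by both fits. Upper-quartile scaling moved the median of all genes to 0.19 and the split to 6246 rises and 4044 falls, 60.7% rises against 49.3%. There was no overlap between injured and intact libraries for 13663 genes (61%).

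A further check used libraries of the first set alone, the 2 injured control libraries of that set against the 3 intact dKO libraries, which differ in genotype as well. The same intact dKO libraries also entered the calls, so the check is not independent of them. For this reason the shares among all tested genes, given beside it, are no fair contrast. Both injured control libraries lay above all 3 intact dKO libraries for 3885 of the 4930 rises (78.8%) and below them for 4243 of the 5067 falls (83.7%). Among all tested genes 33.0% lay above and 30.8% below. Of the 726 rises among genes with a mean log2 CPM under 0, 43.9% did so, and 5.10% were called with the set term. Of the 2839 rises at a mean log2 CPM of 3 or more, 91.9% met it and 54.6% were called with the set term. For falls the share was 79.7% of 113 weakly read genes and 83.9% of 4293 well read genes.

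**Figure D1:**
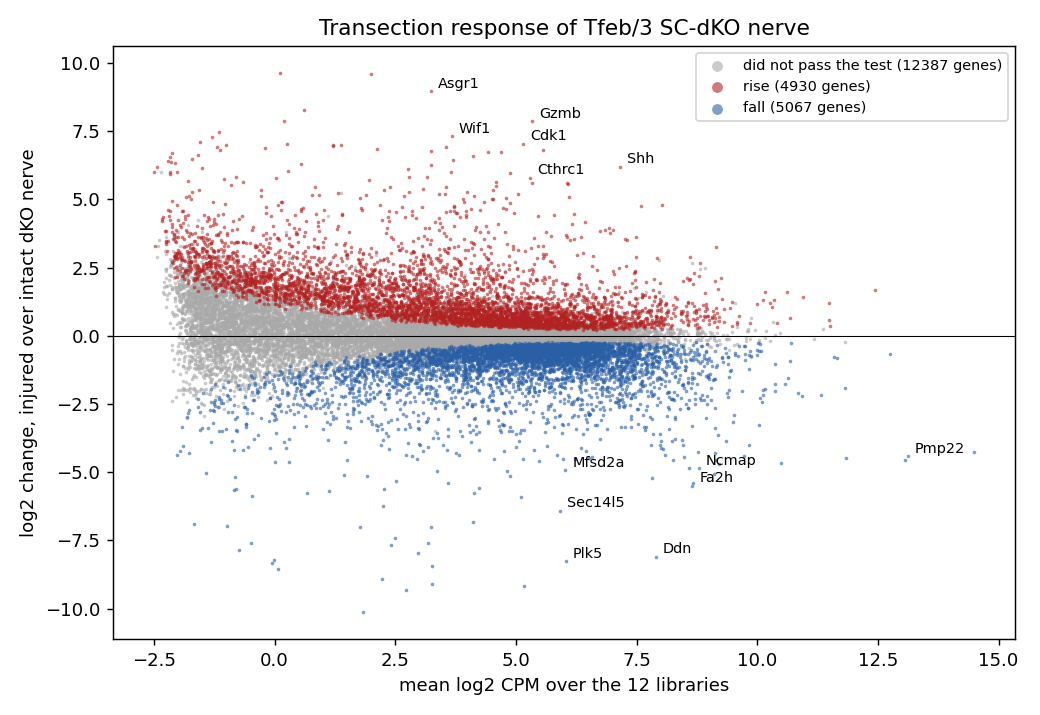
Log2 change after transection in dKO nerve (y axis) against mean log2 CPM over the 12 libraries (x axis) for the 22384 tested genes, 1 point a gene. Red points are the 4930 rises, blue points the 5067 falls and grey points genes that did not pass the test, and labels mark Pmp22 and some of the genes with the largest changes under the naming rule.

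Among well read genes whose 3 injured libraries stood apart from the intact ones and which were called by both fits, the 15 with the largest rises were Asgr1, Gzmb, Wif1, Cdk1, Ankle1, Gdnf, Cdca5, Fam64a, Pbk, Ucn2, Ccnb1, Shh, Kif18b, Btc and Cthrc1. The condition on level was a mean log2 CPM of at least 3 over all 12 libraries. A gene near 0 in intact dKO nerve, such as Asgr1, met it through other libraries. Cdk1, Ccnb1, Cdca5, Fam64a, Pbk and Kif18b act in mitosis. Asgr1, a receptor for galactose-ended glycoproteins known from liver, was read at 0, 0.0610 and 0.0679 CPM in intact nerve and 27.4, 21.1 and 25.5 CPM in injured nerve (log2 change 8.96, SE 0.45, adjusted p = 3.02e-09). Its intact libraries held fewer than 3 counts each, so the size of this ratio depends on how such low counts are handled. Gzmb, the granule protease of cytotoxic lymphocytes, went from 0.268, 0 and 0 CPM to 29.4, 9.20 and 20.2 CPM (log2 change 7.86, SE 1.09, adjusted p = 3.93e-04), with injured replicate 3 the lowest of the injured ones. The alternative test limma-voom did not call it (adjusted p = 0.121). Wif1, a secreted inhibitor of Wnt ligands, was at 0.191, 0.183 and 0.102 CPM in intact nerve and 22.5, 26.6 and 28.9 CPM in injured nerve (log2 change 7.32). Ucn2, a peptide of the corticotropin-releasing family, was at 0.421, 0.274 and 0.272 CPM in intact nerve and 40.7, 28.4 and 23.3 CPM in injured nerve (log2 change 6.58). Cthrc1, a secreted protein of wound and repair tissue, was at 1.80, 1.07 and 1.56 CPM in intact nerve and 74.2, 89.9 and 81.1 CPM in injured nerve (log2 change 5.80). That the lowest injured library exceeded the highest intact library was a condition of this choice, not a result.

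The 15 largest falls under the same conditions were Plk5, Ddn, Sec14l5, Tmem229a, Agxt2l1, Fgf4, Fa2h, Tchh, the septin listed under the spreadsheet date 3-Sep, Lect1, Ccdc37, Syna, Mfsd2a, Ncmap and Spnb1. Plk5, a polo-like kinase without kinase activity that is known from brain, was read at 199, 111 and 125 CPM in intact nerve and 0.513, 0.333 and 0.635 CPM in injured nerve (log2 change -8.26, SE 0.33, adjusted p = 1.40e-09). Ddn, the cytoskeletal protein dendrin, was at 575, 428 and 525 CPM in intact nerve and 2.23, 1.86 and 1.27 CPM in injured nerve (log2 change -8.11, SE 0.36, adjusted p = 8.23e-09). Mfsd2a, a transporter of lysophosphatidylcholine at the blood-brain barrier, went from 129.9, 110.5 and 145 CPM to 3.81, 4.92 and 3.81 CPM (log2 change -4.93, SE 0.17, adjusted p = 7.71e-11). Injured libraries below all intact ones were a condition of the choice here too. Others of the 15 were Ccdc37 (log2 change -5.06), Sec14l5 (-6.42), Tmem229a (-5.89), Lect1 (-5.13), Syna (-4.95) and Tchh (-5.41). So were 3-Sep (-5.21), Agxt2l1 (-5.77), Spnb1, an erythroid beta spectrin (-4.84), and the growth factor gene Fgf4 (-5.59).

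Myelin genes fell almost throughout. On the list of myelin proteins and lipid enzymes, of the 32 members tested 1 rose, 28 fell and 3 did not pass the test, with a median log2 change of -2.29, and with the library set in the model the calls were 1 higher and 24 lower. The same pair of counts, rises and falls called with the library set, is given in parentheses for the lists that follow. Counts of a list are to be read beside the 22% rises and 22.6% falls among all tested genes. A list near these shares does not stand out from all genes. Together the reads of the myelin list made up 9.73%, 9.33% and 10.2% of all counts in the intact libraries and 1.11%, 1.11% and 0.936% in the injured ones. Pmp22 (chromosome 11, 63128982 to 63159547), the membrane protein whose duplication causes Charcot-Marie-Tooth disease, was at 18585, 15650.4 and 19761 CPM in intact nerve and 961, 895 and 681 CPM in injured nerve (log2 change -4.41, SE 0.17). Mbp, which compacts the cytoplasmic faces, was at 16993, 15642 and 14643 CPM in intact nerve and 685, 759 and 569 CPM in injured nerve (log2 change -4.55, SE 0.20). Both genes held residual levels in every injured library that were far above the level of 3 counts. Pmp2, a lipid-binding protein of compact myelin, did not pass the test: it was read at 558, 778 and 868 CPM in intact nerve and 605, 572 and 495 CPM in injured nerve, and the groups overlapped (log2 change -0.40, adjusted p = 0.0868). Among proteins of non-compact myelin and the Schwann cell cytoskeleton, Prx, the scaffold periaxin, was at 7560.3, 7077 and 7374 CPM in intact nerve and 302, 335 and 357 CPM in injured nerve (log2 change -4.47), Drp2 changed by -4.67, Cldn19, a tight junction claudin, by -3.85, Mag, an adhesion molecule facing the axon, by -3.04, Ncmap by -4.86 and Dusp15 by -4.71. All 7 members listed with the enzymes of myelin galactolipids fell, among them Fa2h, which hydroxylates fatty acids (log2 change -5.49), and Ugt8a, which adds galactose to ceramide (-4.42). These members include Aspa (-1.33), which acts on N-acetylaspartate and not on a galactolipid. Gjb1, the gap junction protein connexin 32, was the 1 member that rose, from 163, 148 and 184 CPM to 279.7, 263 and 265 CPM (log2 change 0.71, SE 0.16, adjusted p = 0.00311).

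The transcription factors of myelination changed in both directions. Of 12 tested, 2 rose and 7 fell (1 and 6 with the library set), with a median log2 change of -0.50. Egr2, the master regulator of myelin genes, was read at 296, 249.99 and 242 CPM in intact nerve and 59.6, 56.4 and 37.4 CPM in injured nerve (log2 change -2.36, SE 0.21, adjusted p = 1.12e-06). Sox10, which defines the Schwann cell lineage, was at 611, 538 and 643 CPM in intact nerve and 205, 196 and 144 CPM in injured nerve (log2 change -1.72, SE 0.18, adjusted p = 3.92e-06), and no injured library reached an intact one. Srebf2, the factor that drives sterol synthesis, changed by -2.31, the Egr2 cofactor Nab1 by -1.21 and Pou3f2 by -1.08. Pou3f1 (Oct6), which marks the promyelinating stage, rose from 7.85, 9.94 and 10.4 CPM to 25.3, 29.5 and 27.9 CPM (log2 change 1.55). Of 12 markers kept across Schwann cell states 2 rose and 8 fell (3 and 3 with the library set), S100b among the falls (625, 639 and 682 CPM in intact nerve and 154, 136 and 228 CPM in injured nerve, log2 change -1.91). The neuregulin receptor Erbb3 fell as well (-1.26). The call of Erbb3 was lost once the library set entered the model.

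Genes of the nodes of Ranvier and the axoglial contacts fell more often than they rose. Here of the 21 members tested 4 rose, 11 fell and 6 did not pass the test, with a median log2 change of -0.42 (2 and 10 with the library set). Nfasc, the neurofascin gene whose glial form sits at the paranode, was read at 779, 884 and 923 CPM in intact nerve and 111, 113 and 94.6 CPM in injured nerve (log2 change -3.02, SE 0.17, adjusted p = 6.84e-09). Cadm3, an adhesion molecule of the internode, changed by -2.09, the dystroglycan gene Dag1 by -2.0, the dystrophin relative Utrn by -1.59 and Cadm2 by -1.82. Nrcam, an adhesion protein of the node, rose from 63.8, 74.9 and 79.8 CPM to 171, 135 and 157 CPM (log2 change 1.08), as did Ezr, the ezrin of Schwann cell microvilli (1.13), and, by less, Cntnap2 (0.47). Potassium channels split evenly, with 13 rises and 13 falls among 41 tested, but the library set kept 1 rise and 9 falls. The falling channels were well read: Kcna1, a channel of the juxtaparanode, was at 493, 349 and 319 CPM in intact nerve and 137, 106 and 82.8 CPM in injured nerve (log2 change -1.83) and Kcnk1 at 206, 123 and 133 CPM in intact nerve and 7.70, 7.20 and 4.91 CPM in injured nerve (log2 change -4.52). Kcnq5 was the rise called by both fits (40.8, 41.3 and 37.7 CPM in intact nerve and 69.5, 67.0 and 73.0 CPM in injured nerve, log2 change 0.81), and Kcnd3 (1.23), Kcna4 (3.57) and Kcnma1 (1.76) rose in the first fit. Among the falls were also Kcna2, partner of Kcna1 (-3.40), Kcnmb4 (-2.52) and Kcnj12 (-2.45). In the fit with the library set, the calls of Cntnap2, Kcnd3, Kcna4 and Kcnma1 were lost. There the change of Cntnap2 turned to -0.10. Cntnap2 fell short of the threshold once intact replicate 2, 3 or 4 or injured replicate 2 or 3 was left out.

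Neurofilament genes and the neuropeptide gene Calca fell. Nefm, a neurofilament subunit, was read at 21.1, 21.8 and 23.0 CPM in intact nerve and 1.99, 1.64 and 1.5 CPM in injured nerve (log2 change -3.67, SE 0.20, adjusted p = 6.21e-09), Nefh at 8.88, 8.51 and 8.55 CPM in intact nerve and 0.604, 0.278 and 0.347 CPM in injured nerve (log2 change -4.37) and the peripherin gene Prph at 16.3, 12.7 and 19 CPM in intact nerve and 2.33, 1.47 and 1.62 CPM in injured nerve (log2 change -3.14). The synaptic gene Snap25 changed by -3.25 and the neuropeptide gene Calca by -2.71. In each of them every injured library was below every intact library. Tubb3, a beta tubulin used as a neuronal marker that other cells also make, rose from 6.55, 4.67 and 8.66 CPM to 117, 94.1 and 147 CPM (log2 change 4.17), and Uchl1, a neuronal ubiquitin hydrolase, from 81.3, 80.3 and 92.3 CPM to 158, 138 and 168 CPM (0.87). Syt1 (1.71) and Scn10a (2.07) rose at low levels, and the light neurofilament gene Nefl fell (-5.61). Of the 15 neuronal markers 6 rose and 6 fell, and 2 and 5 were called with the library set. Adding the library set ended the calls of Syt1, Scn10a and Nefl. When the female library was also left out, the change of Syt1 turned to -0.22.

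**Figure D2:**
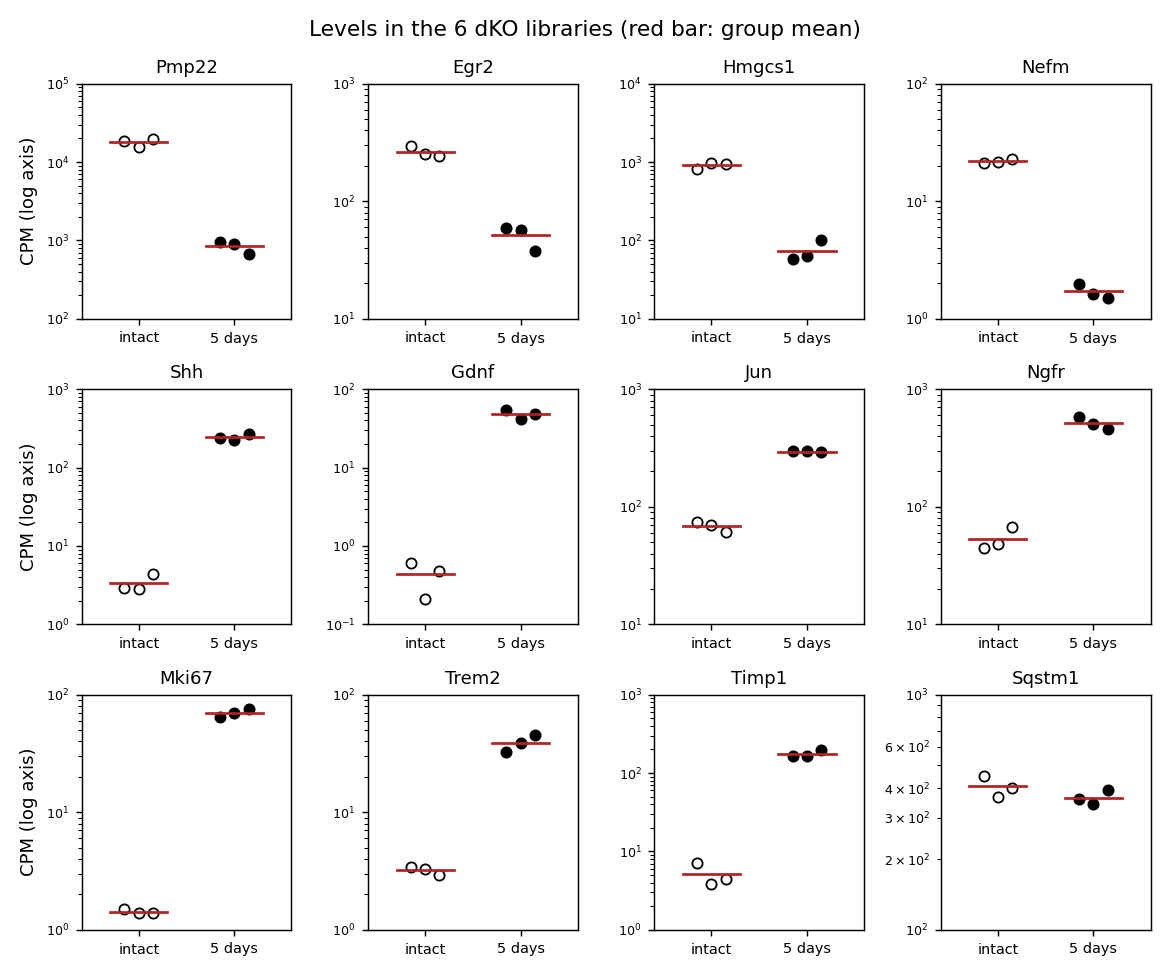
CPM on a log axis (y axis) of 12 genes in each dKO library, open circles for the 3 intact and filled circles for the 3 injured libraries, with a horizontal bar at each group's mean. Pmp22, Egr2, Hmgcs1 and Nefm are lower in every injured library, Shh, Gdnf, Jun, Ngfr, Mki67, Trem2 and Timp1 higher in every one, and Sqstm1 overlaps.

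Injury-induced transcription factors rose in dKO nerve. On that list of the 35 members tested 24 rose, 1 fell and 10 did not pass the test, with a median log2 change of 1.25, and the calls with the library set were 17 higher and 0 lower. Jun (chromosome 4, 95049034 to 95052222), the AP-1 factor that directs the repair state, was read at 74.7, 70.3 and 61.3 CPM in intact nerve and 295, 297 and 291 CPM in injured nerve (log2 change 2.10, SE 0.13, adjusted p = 1.91e-08). Fos went from 16.1, 11.1 and 11.5 CPM to 66.3, 59.1 and 106 CPM (log2 change 2.58), Fosl2 changed by 1.37, Fosl1 by 1.40, and Atf3, a stress-induced partner of Jun, was at 21.0, 28.9 and 40.4 CPM in intact nerve and 194, 119.9 and 154 CPM in injured nerve (log2 change 2.37). Of the 10 AP-1 genes including Atf3, 7 rose and none fell. Sox2, a factor of immature Schwann cells that blocks myelination, was read at 14.3, 12.2 and 16.7 CPM in intact nerve and 62.6, 55.6 and 59.1 CPM in injured nerve (log2 change 2.04, SE 0.16, adjusted p = 1.58e-07), Runx2 at 4.94, 3.87 and 4.58 CPM in intact nerve and 89.9, 77.1 and 63.8 CPM in injured nerve (log2 change 4.11, SE 0.20, adjusted p = 3.26e-09) and Sox4 at 16.7, 16.8 and 19.1 CPM in intact nerve and 125, 117 and 156 CPM in injured nerve (log2 change 2.92). The 3 injured libraries of each were close to one another and above all intact ones. Olig1, known from the repair state, was read at 0.268, 0.0610 and 0 CPM in intact nerve and 2.39, 1.36 and 1.04 CPM in injured nerve (log2 change 3.90), where intact levels lay near or below 3 counts. Runx1 (log2 change 1.66), Etv4 (1.75) and Tfap2a (3.02) rose as well. The 1 fall was that of the receptor Notch1 (-0.31). After the library set was added as a term, the call of Notch1 was lost. There the change of Notch1 turned to 0.069. The call of Notch1 did not hold without intact replicate 3 or 4 or injured replicate 2, 3 or 4.

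Ligands that support neurons and glia rose more often than they fell. Among neurotrophins, the GDNF family and the interleukin-6 family, of the 12 members tested 9 rose, 1 fell and 2 did not pass the test, with a median log2 change of 1.62 (6 and 1 with the library set). Gdnf (chromosome 15, 7810846 to 7837575), a survival factor for motor neurons, was read at 0.613, 0.213 and 0.475 CPM in intact nerve and 54.2, 41.5 and 47.8 CPM in injured nerve (log2 change 6.81, SE 0.34, adjusted p = 9.62e-09). Clcf1, a ligand of the ciliary neurotrophic factor receptor, was at 21.4, 15 and 18.8 CPM in intact nerve and 244, 192 and 202 CPM in injured nerve (log2 change 3.53). Artn, of the GDNF family, rose from 0.574, 0.762 and 0.305 CPM to 3.59, 2.28 and 6.24 CPM (log2 change 2.85). Cntf, a factor that myelinating Schwann cells store, fell from 738, 454 and 665 CPM to 48.0, 40.01 and 46.9 CPM (log2 change -3.78, SE 0.27, adjusted p = 2.78e-07). Bdnf was read at 0.191, 0.244 and 0.272 CPM in intact nerve and 1.51, 1.00 and 0.347 CPM in injured nerve (log2 change 2.02, SE 0.60, adjusted p = 0.0132). With a set term, the call of Bdnf was lost. Bdnf did not pass the test without intact replicate 2 or injured replicate 2.

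Of the 20 hedgehog, EGF, FGF, IGF and other growth factors tested, 9 rose and 4 fell (6 and 1 with the library set). Shh (chromosome 5, 28456815 to 28467256), a hedgehog ligand induced in repair Schwann cells, was read at 2.91, 2.81 and 4.38 CPM in intact nerve and 239, 228 and 269.7 CPM in injured nerve (log2 change 6.19, SE 0.24, adjusted p = 4.07e-10), while Dhh, the hedgehog of developing Schwann cells, fell as given above. Btc, betacellulin, a ligand of the EGF receptor, was at 1.11, 0.732 and 0.441 CPM in intact nerve and 52.6, 51.5 and 39.0 CPM in injured nerve (log2 change 5.98), Fgf5 at 0.613, 0.122 and 0.441 CPM in intact nerve and 18.2, 10.8 and 12.9 CPM in injured nerve (log2 change 5.18) and Gdf15, a cytokine of stressed cells, at 0.383, 0.305 and 0.373 CPM in intact nerve and 3.17, 3.39 and 3.58 CPM in injured nerve (log2 change 3.24). Hbegf, another ligand of the EGF receptor, rose from 94.1, 87.4 and 102 CPM to 153, 175 and 189 CPM (log2 change 0.87, SE 0.13, adjusted p = 7.15e-05). Tgfa, also of the EGF family, fell from 118, 132 and 150.0 CPM to 22.6, 22.3 and 17.7 CPM (log2 change -2.67, SE 0.19, adjusted p = 1.17e-07), and Fgf7 fell too (log2 change -0.71). Receptors of these ligands moved the other way more often: 6 of 32 tested members rose and 13 fell (median log2 change -0.23) (2 and 6 with the library set). Ngfr, the p75 neurotrophin receptor and a marker of immature and repair Schwann cells, was read at 44.3, 48.4 and 67.6 CPM in intact nerve and 582, 502 and 458 CPM in injured nerve (log2 change 3.27, SE 0.18, adjusted p = 8.07e-09). Met, the receptor of hepatocyte growth factor, the hedgehog effector Gli3 and Egfr rose by 1.29, 1.20 and 0.66. Smo, which passes the hedgehog signal (log2 change -1.28), Sort1 (-1.30), the GDNF family receptor Gfra2 (-0.97), the PDGF receptor Pdgfrb (-1.07) and Ntrk3 (-1.03) fell. In the fit with the library set, the calls of Fgf7, Gli3 and Egfr were lost.

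Adhesion and glial markers of immature and non-myelinating Schwann cells did not share a direction: 10 rose and 10 fell among 23 (7 and 5 with the library set). Tnc, the matrix protein tenascin C, was read at 16.8, 20.2 and 19.1 CPM in intact nerve and 600.3, 455 and 489.7 CPM in injured nerve (log2 change 4.78, SE 0.19, adjusted p = 3.00e-10), and Apod, a lipid carrier, at 2731, 2011 and 2613 CPM in intact nerve and 7933, 8211 and 7285 CPM in injured nerve (log2 change 1.67). Gap43, a growth-associated protein, changed by 1.42 and the cadherin Cdh6 by 2.23. Ncam1, carried by non-myelinating Schwann cells, fell from 121, 114 and 121 CPM to 22.7, 28.9 and 20.05 CPM (log2 change -2.31, SE 0.19, adjusted p = 3.42e-07), Cdh2, N-cadherin, from 98.0, 121 and 132 CPM to 20.9, 22.6 and 17.4 CPM (log2 change -2.52, SE 0.23, adjusted p = 1.70e-06), and Scn7a, a sodium channel of non-myelinating Schwann cells, from 351, 340.4 and 360.0 CPM to 55.0, 55.9 and 50.7 CPM (log2 change -2.70). The intermediate filament gene Vim was at 1875, 1771 and 1900.3 CPM in intact nerve and 2629.9, 2351 and 2229 CPM in injured nerve (log2 change 0.38), a small rise with no overlap. The library set, entered as a term, ended the call of Vim. Vim fell short of the threshold once intact replicate 2, 3 or 4 or injured replicate 2 was left out.

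Cell cycle genes rose with few exceptions. Of 38 mitotic genes tested 37 rose and none fell (median log2 change 3.81), 36 of them also with the library set, and of 38 genes of the G1/S step and DNA replication 35 rose and none fell (median 1.76), 33 of them also with the set. Mki67, the proliferation marker, was read at 1.49, 1.40 and 1.39 CPM in intact nerve and 64.4, 69.9 and 75.3 CPM in injured nerve (log2 change 5.61, SE 0.14, adjusted p = 1.53e-11). Cdk1 (chromosome 10, 69335146 to 69352938), the mitotic kinase, was at 0.268, 0.244 and 0.204 CPM in intact nerve and 27.5, 31.3 and 37.4 CPM in injured nerve (log2 change 7.05, SE 0.30, adjusted p = 8.01e-10), and Ccnb1, its cyclin, at 0, 0.152 and 0.170 CPM in intact nerve and 8.88, 12.4 and 9.30 CPM in injured nerve (log2 change 6.45). Top2a, which untangles DNA, was at 0.727, 2.56 and 1.43 CPM in intact nerve and 67.0, 74.4 and 86.8 CPM in injured nerve (log2 change 5.56). The kinetochore and spindle genes Cenpf (log2 change 5.49), Nuf2 (5.35), Birc5 (5.00), Prc1 (3.69) and Racgap1 (2.86) rose too, as did the mitotic factor Foxm1 (3.11). At the G1/S step Ccna2 was at 3.56, 3.42 and 4.14 CPM in intact nerve and 44.1, 44.1 and 46.8 CPM in injured nerve (log2 change 3.60, SE 0.17, adjusted p = 1.40e-09), and E2f1 (log2 change 3.30), Rrm2 (4.85), Uhrf1 (4.64) and Mcm5 (2.48) rose. For every gene named here the injured libraries lay above all intact ones.

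Of the genes that gate entry into the cycle, 8 of 15 rose and 4 fell (3 and 2 with the library set). Ccnd1, cyclin D1, was read at 136, 141 and 130.3 CPM in intact nerve and 486, 518 and 537 CPM in injured nerve (log2 change 1.92, SE 0.12, adjusted p = 2.06e-08), and Cdk4, its kinase, at 63.5, 70.7 and 74.1 CPM in intact nerve and 136, 126 and 119 CPM in injured nerve (log2 change 0.87). The CDK inhibitors Cdkn1a (p21) and Cdkn1b (p27) fell, from 767, 552 and 598 CPM to 127, 111 and 105 CPM (log2 change -2.48) and from 365, 297 and 343 CPM to 88.8, 83.1 and 73.3 CPM (-2.03). Cdkn2a, which encodes p16 and p19ARF, rose from 2.95, 4.06 and 4.72 CPM to 13.8, 13.7 and 27.5 CPM (log2 change 2.22, SE 0.36, adjusted p = 2.36e-04). Among relatives of the retinoblastoma protein Rbl1 rose (1.19) and Rbl2 fell (-0.63), as did the inhibitor Cdkn1c (-1.17). Cyclins D2 and D3 did not pass the test. After the library set was added as a term, the calls of Cdkn2a, Rbl2 and Cdkn1c were lost. Without injured replicate 2 the test was not passed by Cdkn1c.

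Promoter sequences are shown for 3 mitotic genes because these genes moved together. Many mitotic promoters hold a cell cycle homology region (CHR, searched as TTTGAA on either strand) near the start of transcription, through which the DREAM and MuvB complexes act, and CCAAT boxes upstream of it, which bind NF-Y. In the 250 bases before to 50 after the RefSeq start, TTTGAA was found in 24 of the 33 mitotic promoters that could be matched (72.7%), in 15.6% of 12673 promoters of tested genes, and in 20.2% of all 27025 promoters. CCAAT was found in 23 of the 33 (69.7%) and in 42.1% of tested genes. A match is a description of the letters, not proof of a site. The stretches below end at the last base before the annotated start, run 5′ to 3′ on the gene's strand, and have both motifs in capitals, CCAAT or its reverse complement, and TTTGAA or its reverse complement. They are from RefSeq, GRCm38.p6, at chr10:69352913-69352993 (minus strand), chr4:118437344-118437427 (minus) and chr2:164769834-164769928 (plus).
Cdk1: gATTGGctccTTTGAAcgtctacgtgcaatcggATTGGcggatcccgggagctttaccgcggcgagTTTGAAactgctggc
Cdc20: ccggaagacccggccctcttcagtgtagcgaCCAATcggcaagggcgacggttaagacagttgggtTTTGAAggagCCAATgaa
Ube2c: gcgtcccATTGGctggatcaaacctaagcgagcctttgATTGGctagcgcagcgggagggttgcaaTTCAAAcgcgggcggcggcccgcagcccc
All 3 windows hold CCAAT boxes and a CHR match close to the start, with its first base at -15, -18 and -29 counted from the start. The genes rose in every injured library, Cdc20, the activator of the anaphase-promoting complex, from 6.09, 3.99 and 3.19 CPM to 37.2, 39.0 and 43.8 CPM (log2 change 3.18) and Ube2c, its ubiquitin-conjugating enzyme, from 0.766, 0.854 and 0.509 CPM to 20.3, 19.5 and 24.6 CPM (4.90). In the G1/S list TTTGAA stood in 6 of 31 promoters (19.4%).

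Cholesterol synthesis fell as a pathway. Of 24 genes tested 22 fell and none rose (median log2 change -2.42), and 21 fell with the library set as well. Hmgcs1, an early enzyme of the mevalonate pathway, was read at 815, 964 and 945 CPM in intact nerve and 57.4, 62.7 and 100.0 CPM in injured nerve (log2 change -3.63, SE 0.22, adjusted p = 2.06e-08). Idi1 (log2 change -3.22), Fdps (-2.99), Sqle (-2.42), Lss (-3.28), Cyp51 (-2.59) and Sc5d (-3.07), which act after it, fell too. For each of these all injured libraries lay below all intact ones. CCAAT was present in 15 of the 16 promoters of this list that were matched (93.8%).

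Fatty acid synthesis fell in part: 1 of 20 tested members rose and 12 fell (median log2 change -0.95) (0 and 9 with the library set). Scd2, a desaturase of neural tissue, was read at 4024, 3944 and 4410.0 CPM in intact nerve and 923, 869 and 953 CPM in injured nerve (log2 change -2.17, SE 0.15, adjusted p = 4.07e-08), Fads1 changed by -2.17, Fads2 by -1.78, Elovl6 by -3.35 and Elovl1 by -1.66. Fasn, at 1194, 1448 and 794 CPM in intact nerve and 451, 622 and 918 CPM in injured nerve, overlapped between groups and did not pass (log2 change -0.79, adjusted p = 0.32). Acsl4, which activates arachidonic acid, was the 1 rise (0.60). Fat cell genes were lower in intact replicate 4, as given below, and Fasn and Scd1 are also made by fat cells. Their part in these values was not tested. With a set term, the call of Acsl4 was lost.

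Genes of energy metabolism changed in both directions. Of 74 nuclear-encoded subunits of the respiratory chain 18 rose and 6 fell (9 and 0 with the library set), 32.4% against 44.7% of all genes, and of 18 citric acid cycle genes 1 rose and 4 fell (1 and 0 with the library set). Uqcrh rose from 84.5, 101 and 95.8 CPM to 153, 163 and 176 CPM (log2 change 0.81). Other rises were those of Ndufc2 (0.62), Ndufa4 (0.68) and Uqcrq (0.83), and Sdha (-0.48), Atp5o (-0.51), Ndufb4 (-0.77) and Ndufv3 (-0.30) fell. In the citric acid cycle Dlst rose (0.48), and Idh3b (-0.39), Idh3g (-0.39) and Pdha1 (-0.37) were among those that fell, by less than 0.5 on the log2 scale. In glycolysis 6 of 25 rose and 8 fell (2 and 5 with the library set), and isoforms of the same step moved in opposite directions. Hexokinase 1 (Hk1) fell from 261, 228 and 249 CPM to 129.8, 125 and 102 CPM (log2 change -1.05) while Hk2 rose from 19.7, 21.6 and 15 CPM to 37.5, 36 and 46.5 CPM (1.09). Pfkm fell (-1.33) while Pfkp rose (0.88), and Ldhb fell from 224, 195 and 225 CPM to 70.4, 65.0 and 60.8 CPM (-1.71). Aldoc, the aldolase of glia, fell (-3.99), and Pgk1 (0.84) and Pgam1 (0.40) rose. Of 15 targets of hypoxia-inducible factors none rose and 4 fell (0 and 4 with the library set), led by Ndrg1, a Schwann cell gene whose loss causes neuropathy (3125, 2998 and 3106 CPM in intact nerve and 643, 684 and 689 CPM in injured nerve, log2 change -2.20) and including Egln1 (-1.47), P4ha1 (-1.46) and Kdm3a (-0.52). The calls of Ndufa4, Sdha, Atp5o, Ndufb4, Ndufv3, Idh3b, Idh3g, Pdha1, Hk2 and Pgam1 were lost once the library set entered the model. Ndufb4 did not pass the test without intact replicate 3 or 4 or injured replicate 4. Without intact replicate 2 or 4 or injured replicate 3 or 4 the test was not passed by Ndufv3. The call of Pdha1 did not hold without intact replicate 2 or 3 or injured replicate 2 or 3.

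Genes of the integrated stress response and amino acid supply split, with 11 rises and 5 falls among 26 (7 and 5 with the library set). The transcription factor Atf4 was read at 158, 149 and 172 CPM in intact nerve and 259, 283 and 338 CPM in injured nerve (log2 change 0.88, SE 0.11, adjusted p = 2.03e-05), and its targets Asns, asparagine synthetase (7.04, 7.81 and 6.38 CPM in intact nerve and 28.5, 28.2 and 28.3 CPM in injured nerve, log2 change 2.00), Trib3 (1.78), Pck2 (1.38), Mthfd2 (1.62), Aldh18a1 (0.72) and Pycr1 (1.71) rose. Phgdh, of serine synthesis, and both chains of an amino acid importer fell, Phgdh being at 89.2, 66.7 and 62.7 CPM in intact nerve and 23.8, 24.7 and 27.7 CPM in injured nerve (log2 change -1.52), Slc7a5 at 316, 201 and 185 CPM in intact nerve and 62.6, 53.6 and 36.7 CPM in injured nerve (log2 change -2.19) and Slc3a2 changed by -1.04. The phosphatase subunit Ppp1r15a (-1.03) fell too. Ddit3 and Slc7a11, other targets of Atf4, did not pass the test. Of 22 chaperones and other folding genes of the endoplasmic reticulum 9 rose and 3 fell (3 and 1 with the library set), so that 54.5% were called against 44.7% of all genes. Pdia3 changed by 0.97, Pdia6 by 0.86, Sdf2l1 by 1.37 and Edem1 by 1.02, while Dnajc3 (-0.42), Herpud1 (-0.39) and Sel1l (-0.31) fell by less than 0.5. After the library set was added as a term, the calls of Sdf2l1, Herpud1 and Sel1l were lost. Sel1l did not pass the test without intact replicate 3 or 4 or injured replicate 3 or 4.

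In iron handling 7 of 20 genes rose and 4 fell (3 and 4 with the library set), so that 55% were called against 44.7% of all genes. Fth1, the ferritin heavy chain, was read at 5578, 5134 and 5409 CPM in intact nerve and 1487, 1391 and 1435 CPM in injured nerve (log2 change -1.90, SE 0.12, adjusted p = 1.66e-08), and Tfrc, the transferrin receptor, at 38.9, 37.2 and 30.3 CPM in intact nerve and 17.2, 19.9 and 19 CPM in injured nerve (log2 change -0.92). Steap3, a ferrireductase, rose from 48.6, 64.8 and 55.3 CPM to 138, 151 and 155 CPM (log2 change 1.39). The phagosomal iron transporter Slc11a1 (1.44), Blvra (0.89) and Steap4 (0.84) rose, and the haem-degrading enzyme Hmox1 (-0.76) and the haem transporter Slc48a1 (-1.31) fell. Of 19 circadian clock genes 10 fell and 2 rose, and 7 were called lower with the set term. Among the falls stood Cry2 at 97.2, 82.4 and 78.7 CPM in intact nerve and 36, 31.4 and 38.0 CPM in injured nerve (log2 change -1.29), Nr1d1 at 332, 393 and 386 CPM in intact nerve and 180.2, 160.5 and 157 CPM in injured nerve (log2 change -1.16). Hlf changed by -2.10 and Tef by -1.04. Nfil3 (1.27) and Clock (0.26) were the 2 rises. With a set term, the calls of Steap4, Nfil3 and Clock were lost. The call of Nfil3 did not hold without intact replicate 3 or 4 or injured replicate 2. Clock fell short of the threshold once any 1 of the 6 dKO libraries was left out.

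**Figure D3:**
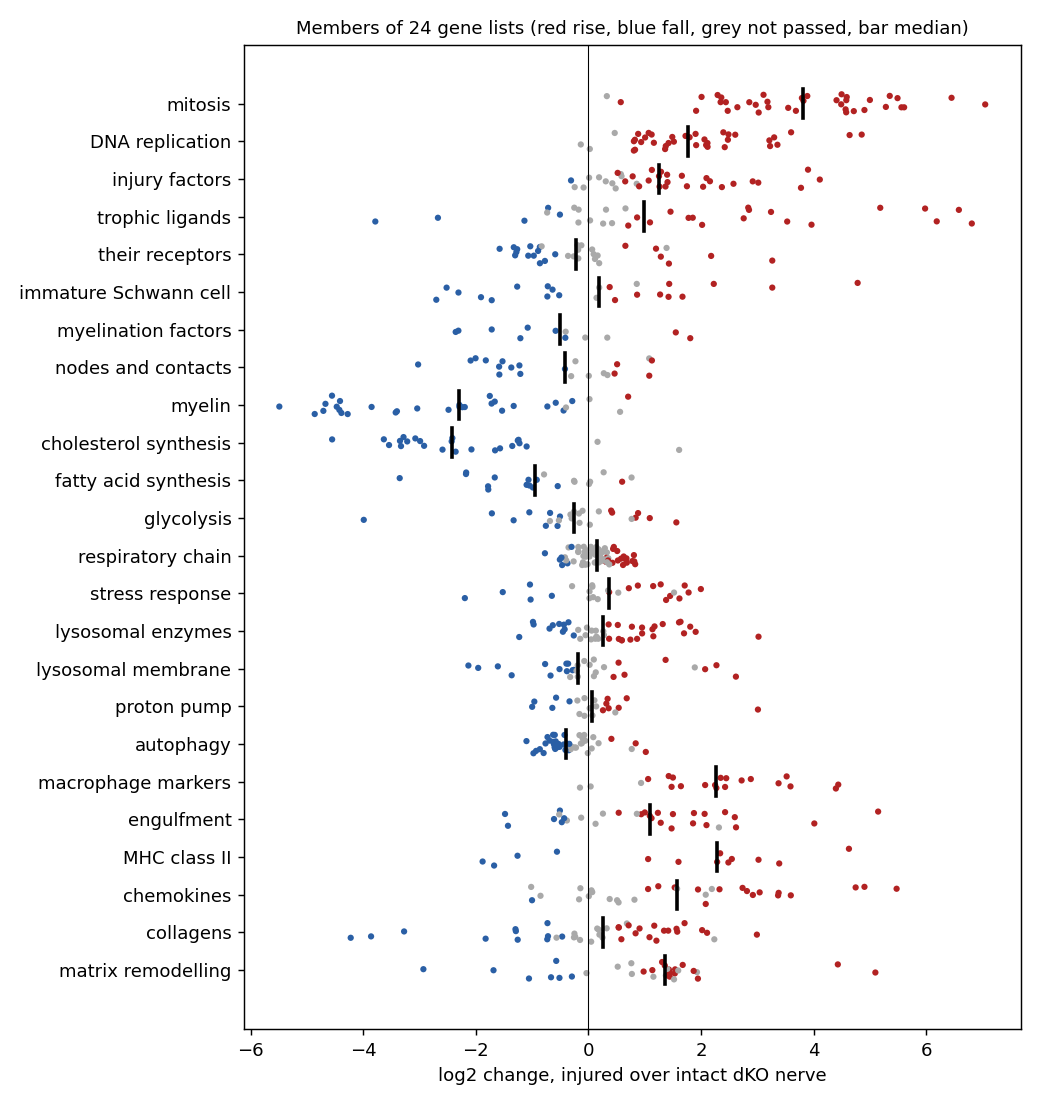
Log2 change after transection in dKO nerve (x axis) of every tested member of 24 gene lists (rows), 1 point a gene, red for rises, blue for falls and grey for genes that did not pass the test, with a black bar at each list's median. Mitotic genes lie almost wholly to the right of 0, cholesterol synthesis and myelin genes to the left, and autophagy genes slightly to the left.

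Lysosomal genes, the known targets of the deleted factors, did not move together. Of 15 lysosomal proteases 10 rose and 1 fell (7 and 1 with the library set), with a median log2 change of 1.15. Of 30 glycosidases, sulfatases and lipases 11 rose and 10 fell (3 and 1 with the library set), with a median of 0.10. Ctss, the cathepsin of phagocytes, was read at 19.3, 18.8 and 11.9 CPM in intact nerve and 116, 147 and 142 CPM in injured nerve (log2 change 3.02, SE 0.29, adjusted p = 7.01e-06), Ctsb at 720.4, 680.4 and 583 CPM in intact nerve and 1944, 2177 and 1935 CPM in injured nerve (log2 change 1.61), Ctsd at 482, 506 and 506 CPM in intact nerve and 1181, 1224 and 1326 CPM in injured nerve (log2 change 1.32, SE 0.11, adjusted p = 3.17e-07) and the legumain gene Lgmn at 56.9, 53.1 and 56.1 CPM in intact nerve and 174, 207 and 201 CPM in injured nerve (log2 change 1.81). Ctsh changed by 1.91 and Ctsk by 1.64, while Ctsf fell (-0.98). Among the other enzymes Hexa (log2 change 1.18), Gusb (1.14) and Galns (0.95) rose, and Ids (-1.23), Galc, which degrades myelin galactolipid (-0.63), and Ppt1 (-0.69) fell. Psap, which encodes the saposins, was at 1440.2, 1430.4 and 1447 CPM in intact nerve and 1566, 1573 and 2051 CPM in injured nerve and Lipa, the acid lipase, at 93.6, 83.5 and 89.7 CPM in intact nerve and 102, 103 and 91.3 CPM in injured nerve. Neither passed the test (adjusted p = 0.078 and 0.229). Macrophage markers rose over the same days, as given below, and macrophages keep Tfeb in these mice. Their part in the rise of the proteases was not tested. The library set, entered as a term, ended the calls of Ids and Galc.

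Lysosomal membrane proteins fell more often than they rose in the first fit only: 7 of 30 tested members rose and 12 fell (median log2 change -0.19). With the library set 6 rose and 5 fell (median -0.01). In the check with injured control libraries of the first set, 12 called members went the same way and 4 the opposite way. Lamp1, the main lysosomal membrane glycoprotein, was read at 736, 803 and 781 CPM in intact nerve and 593, 625 and 564 CPM in injured nerve (log2 change -0.38, SE 0.10, adjusted p = 0.00512). Npc1, the cholesterol exporter, was at 164, 165 and 184 CPM in intact nerve and 61.6, 58.1 and 48.6 CPM in injured nerve (log2 change -1.61, SE 0.15, adjusted p = 8.53e-07), the cystine exporter Ctns at 123, 128 and 143 CPM in intact nerve and 34.5, 36.8 and 29.9 CPM in injured nerve (log2 change -1.96) and the chloride exchanger Clcn6 at 202, 219 and 231 CPM in intact nerve and 51.3, 47.0 and 50.7 CPM in injured nerve (log2 change -2.13). Laptm5 (log2 change 2.27) and Cd68 (2.07), both of leukocytes, Mcoln2 (2.62) and Cd63 (1.37) rose, and Sidt2 fell (-1.36). Of 21 subunits of the proton pump 7 rose and 5 fell (3 and 2 with the library set), with a median log2 change of 0.07. Atp6v0d2, a subunit of macrophages and osteoclasts, was read at 0.421, 0.793 and 0.543 CPM in intact nerve and 3.23, 6.72 and 4.45 CPM in injured nerve (log2 change 3.01), Atp6v1b2 changed by 0.54, Atp6v0b by 0.32 and Tcirg1 by 0.68, while Atp6v0a2 (-0.64), Atp6v0d1 (-0.34), Atp6v0a1 (-0.96) and Atp6v0e2 (-1.0) fell. Adding the library set ended the calls of Lamp1, Mcoln2, Atp6v0b, Atp6v0a2 and Atp6v0d1. The call of Atp6v0b did not hold without intact replicate 2, 3 or 4 or injured replicate 4.

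Autophagy genes fell more often than they rose. Here of the 44 members tested 3 rose, 25 fell and 16 did not pass the test, with a median log2 change of -0.39, and with the set term 3 were called higher and 10 lower. Gabarapl1, an Atg8 protein of the autophagosome, was read at 449, 344 and 369 CPM in intact nerve and 204, 173 and 165 CPM in injured nerve (log2 change -1.10, SE 0.12, adjusted p = 5.07e-06). Wipi2, which marks the growing membrane, was at 115, 118 and 119 CPM in intact nerve and 56.6, 62.5 and 66.2 CPM in injured nerve (log2 change -0.93, SE 0.10, adjusted p = 2.87e-06), and the cargo receptors Calcoco1 (log2 change -0.98) and Nbr1 (-0.73) and the lipid scramblase Atg9a (-0.60) fell. Map1lc3b was at 209.7, 198 and 202 CPM in intact nerve and 136, 124 and 99.5 CPM in injured nerve (log2 change -0.76). Sqstm1, the cargo receptor p62, was at 451, 368 and 402 CPM in intact nerve and 359.9, 342 and 392 CPM in injured nerve, which overlap, and did not pass the test (adjusted p = 0.28). Vmp1 rose from 396, 322 and 371 CPM to 663, 593 and 953 CPM (log2 change 1.02), and Atg5 (0.84) and Gabarap (0.41) were the other rises. Of 30 MiT/TFE factors and regulators at the lysosome 4 rose and 7 fell (1 and 3 with the library set). Flcn, folliculin, which keeps Tfeb and Tfe3 in the cytoplasm, was at 42.7, 40.6 and 36.4 CPM in intact nerve and 20.1, 23.5 and 20.5 CPM in injured nerve (log2 change -0.90, SE 0.13, adjusted p = 5.24e-05), Rragb changed by -2.50, Sesn1 by -1.97 and the mTORC1 inhibitor Tsc2 by -0.88, while Sesn3 (0.69) and Tfec, a relative of Mitf (1.18), rose. Mitf itself was at 33.5, 32.1 and 36.1 CPM in intact nerve and 31.6, 32.6 and 37.4 CPM in injured nerve and did not pass the test (adjusted p = 0.986). Under the fit with the set term, the calls of Map1lc3b, Atg5, Tsc2, Sesn3 and Tfec were lost. Gabarap did not pass the test without intact replicate 3. Without intact replicate 2 or 3 or injured replicate 2 or 4 the test was not passed by Sesn3. The call of Tfec did not hold without intact replicate 2, 3 or 4 or injured replicate 3.

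The CLEAR core, the palindrome TCACGTGA, was searched in the same RefSeq windows because Tfeb and Tfe3 bind it. It stood in 3 of 35 promoters of lysosomal enzymes (8.57%) and 3 of 16 of the proton pump (18.8%), against 1.81% of tested genes. Among the other lists searched it stood in 2 of 31 promoters of G1/S and replication genes (6.45%), 1 of 33 of mitotic genes (3.03%) and none of 16 of cholesterol synthesis. The window is short, and no match says only that these letters are absent from it. Shown are the 3 enzymes and 1 of the 3 pump subunits with a match, in a stretch around the core, on the gene's strand with the core in capitals, from GRCm38.p6 at chr7:142387887-142387992 (minus strand), chr2:164833694-164833772 (plus), chrX:134601161-134601255 (minus) and chr16:44139352-44139457 (minus).
Ctsd: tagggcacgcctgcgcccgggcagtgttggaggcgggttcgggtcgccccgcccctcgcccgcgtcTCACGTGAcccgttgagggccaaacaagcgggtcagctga
Ctsa: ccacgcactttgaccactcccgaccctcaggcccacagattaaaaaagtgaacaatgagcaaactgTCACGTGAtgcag
Gla: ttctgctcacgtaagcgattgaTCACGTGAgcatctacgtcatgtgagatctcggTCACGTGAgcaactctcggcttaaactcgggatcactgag
Atp6v1a: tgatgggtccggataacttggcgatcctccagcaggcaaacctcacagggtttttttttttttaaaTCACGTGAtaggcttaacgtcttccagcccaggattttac
The core begins at -99, -13, -195 and -132 from the start, counted for the match nearest before the start. Gla holds another match upstream, which is also in capitals, and Ctsa another at 4 bases past the start, outside the stretch shown. These genes differed in their response: Ctsd rose as given above, Gla, alpha-galactosidase, rose from 5.97, 6.16 and 7.47 CPM to 9.42, 11.3 and 8.84 CPM (log2 change 0.59, SE 0.17, adjusted p = 0.0102), and Ctsa, at 266, 253 and 267 CPM in intact nerve and 284, 312 and 260.4 CPM in injured nerve, and Atp6v1a, at 37.4, 44.6 and 45.0 CPM in intact nerve and 40.1, 47.4 and 49.6 CPM in injured nerve, did not pass the test (adjusted p = 0.314 and 0.482). The library set, entered as a term, ended the call of Gla. Gla did not pass the test without intact replicate 2 or injured replicate 3. The pump subunits with a match that are not shown are Atp6v0d1, with its core at -4, and Atp6v0e, with its core at 2 bases past the start. Of these, Atp6v0d1 fell in dKO nerve (log2 change -0.34), a call that was lost with the library set.

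Macrophage genes rose. Of 21 markers 18 rose and none fell (median log2 change 2.27), 12 of them also with the library set, and their summed level was 366 to 544 CPM in intact and 1564 to 2051 CPM in injured libraries. Adgre1 (F4/80, listed as Emr1) was read at 7.16, 11.3 and 7.54 CPM in intact nerve and 33.7, 55.6 and 43.3 CPM in injured nerve (log2 change 2.35, SE 0.27, adjusted p = 1.43e-05). Trem2, a lipid receptor of phagocytes, was at 3.45, 3.26 and 2.95 CPM in intact nerve and 32.3, 39.1 and 45.2 CPM in injured nerve (log2 change 3.59, SE 0.26, adjusted p = 9.14e-08), Mpeg1 at 13.6, 9.57 and 8.66 CPM in intact nerve and 107, 131 and 127 CPM in injured nerve (log2 change 3.52), the monocyte receptor Ccr2 at 4.67, 6.59 and 4.51 CPM in intact nerve and 42.9, 58.4 and 63.3 CPM in injured nerve (log2 change 3.38) and Arg1, an enzyme of wound macrophages, at 0.804, 0.579 and 0.509 CPM in intact nerve and 11.7, 13.6 and 15.8 CPM in injured nerve (log2 change 4.44). Injured and intact libraries stood apart for each. Cx3cr1, a marker of resident macrophages, was at 127, 123 and 119 CPM in intact nerve and 147, 117 and 116 CPM in injured nerve and did not pass the test (adjusted p = 0.777). Of the receptors and bridging proteins for engulfment 18 of 31 rose and 6 fell (9 and 3 with the library set), with Havcr2 changed by 4.01, Fcgr4 by 5.15, Megf10 by 1.86 and Pros1, which bridges dead cells to the receptor Mertk, by 1.12, while Mertk itself (-0.61), Itgb5 (-1.43), Lrp1 (-0.43), Elmo1 (-0.51) and Gulp1 (-1.48) fell. After the library set was added as a term, the calls of Mertk and Elmo1 were lost. The call of Mertk did not hold without intact replicate 2 or injured replicate 3 or 4.

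Lipid-handling genes of phagocytes rose for 9 of 20 members, and 2 fell (6 and 2 with the library set). Abca1, the cholesterol efflux pump, was read at 36.9, 39.1 and 27.2 CPM in intact nerve and 285, 237 and 226 CPM in injured nerve (log2 change 2.86, SE 0.18, adjusted p = 2.60e-08), and Lgals3, galectin 3, at 35.9, 32.1 and 36 CPM in intact nerve and 163, 145 and 144 CPM in injured nerve (log2 change 2.12, SE 0.10, adjusted p = 2.11e-09). Soat1, which esterifies cholesterol, changed by 1.76 and Apoe, the lipid carrier, was at 887, 815 and 649 CPM in intact nerve and 1505, 1749 and 1648 CPM in injured nerve (log2 change 1.06). Gpnmb, a marker of lipid-laden macrophages and a known target of MiT/TFE factors, was at 34.4, 25.7 and 21.1 CPM in intact nerve and 46.6, 43.5 and 29.5 CPM in injured nerve (log2 change 0.56, SE 0.18, adjusted p = 0.0224), a small rise in which intact replicate 2 and injured replicate 4 overlap. Abcg1 (-1.0) and the tetraspanin Cd9, also a myelin protein (-2.29), fell. With a set term, the calls of Apoe and Gpnmb were lost. Gpnmb did not pass the test without intact replicate 3 or 4 or injured replicate 2 or 3.

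Among chemokines and cytokines 16 of 31 rose and 1 fell (11 and 1 with the library set). Ccl2, which draws monocytes, was read at 8.23, 3.63 and 3.26 CPM in intact nerve and 23.6, 48.6 and 33.7 CPM in injured nerve (log2 change 2.82, SE 0.45, adjusted p = 4.98e-04), with the intact replicate 2 the highest of its group. Cxcl14 was at 28.9, 27.0 and 16.1 CPM in intact nerve and 624, 736 and 574 CPM in injured nerve (log2 change 4.75, SE 0.61, adjusted p = 2.33e-04), Ccl9 at 15.3, 14.3 and 6.92 CPM in intact nerve and 77.6, 108 and 91.3 CPM in injured nerve (log2 change 2.92), Ccl8 at 0.804, 1.19 and 0.272 CPM in intact nerve and 13.0, 27.1 and 28.9 CPM in injured nerve (log2 change 4.90) and Tgfb1, which also acts on Schwann cells, at 21.8, 21.2 and 15.6 CPM in intact nerve and 82.4, 75.8 and 67.6 CPM in injured nerve (log2 change 1.95). Ccl7 changed by 2.33 and Cxcl16 by 2.08. Cxcl12 fell from 197, 220.2 and 223 CPM to 103, 120.5 and 96.0 CPM (log2 change -1.0). Il1b, Tnf and Il10 were read at no more than 1.33 CPM in any dKO library and did not pass. Interferon-stimulated genes were mostly not called, with 3 rises and 3 falls among 25 and none with the library set. Cxcl10 (1.38), Oas1a (1.13) and Oas3 (1.75) were the rises, Ifit1 (-1.48), Ifit2 (-0.63) and Stat2 (-0.76) the falls. In the fit with the library set, the calls of Cxcl10, Oas1a, Oas3, Ifit1, Ifit2 and Stat2 were lost. The call of Cxcl10 and Oas1a did not hold without intact replicate 2 or 4 or injured replicate 3 or 4. Oas3 fell short of the threshold once intact replicate 2, 3 or 4 or injured replicate 3 was left out.

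Complement and antigen presentation changed in part. Of the complement genes 54.2% were called, against 44.7% of all genes. Of 24 complement genes 10 rose and 3 fell (6 and 4 with the library set), with C1qb at 47.5, 41.8 and 28.1 CPM in intact nerve and 175, 246 and 198 CPM in injured nerve (log2 change 2.40, SE 0.19, adjusted p = 3.90e-07), C3ar1 at 5.55, 6.46 and 5.57 CPM in intact nerve and 33.5, 39.7 and 33.9 CPM in injured nerve (log2 change 2.61), C1qa and C1qc changed by 2.25 and 1.98, and the membrane regulators Cd59a (-1.38) and Cd55 (-1.54) and the protease Masp1 (-0.83) lower. All 13 genes listed under MHC class II antigen presentation were called, 9 higher and 4 lower (8 and 3 with the library set). The list also holds genes outside MHC class II, the cathepsin Ctss, given above, among the rises and Cd80 among the falls. H2-Aa was read at 52.7, 45.8 and 41.3 CPM in intact nerve and 218, 264 and 336 CPM in injured nerve (log2 change 2.55, SE 0.29, adjusted p = 3.45e-05), H2-Ab1 changed by 2.34, H2-Eb1 by 2.49, and Cd74, the invariant chain, was at 186, 151 and 127 CPM in intact nerve and 578, 679 and 1012 CPM in injured nerve (log2 change 2.29). The peptide-loading genes H2-DMa and H2-DMb1 went the other way, H2-DMa from 109, 82.1 and 115 CPM to 25.7, 26 and 31.8 CPM (log2 change -1.88), H2-DMb1 by -1.67 and H2-DMb2 by -1.26, and the costimulator Cd80 was lower too (-0.56). T and natural killer cell markers rose for 12 of 19 and none fell, with a summed level of 12.1 to 12.7 CPM in intact and 44.2 to 53.0 CPM in injured libraries and 3 calls left with the library set, Gzmb, Klrk1 (0.268, 0.122 and 0.0679 CPM in intact nerve and 1.63, 2.25 and 3.18 CPM in injured nerve, log2 change 3.93) and Foxp3 (0.78). Cd2 (2.39) and Cd4 (1.88) rose in the first fit. Of 9 neutrophil markers 4 rose, so that 44.4% were called against 44.7% of all genes. Csf3r rose from 2.07, 1.89 and 1.56 CPM to 9.06, 12.6 and 11.0 CPM (log2 change 2.56), Retnlg by 4.91, Mmp8 by 4.43 and Mpo by 2.11. Mmp8 and Mpo were close to the level of 3 counts in intact nerve, and the size of their ratio depends on how such counts are handled. S100a8 and S100a9 did not pass. Of 9 B cell markers Cd22 (3.09), Cd79b (2.05) and Pax5 (2.74) rose, and of 12 mast cell markers none was called. After the library set was added as a term, the calls of Cd80, Cd2, Cd4, Mmp8, Mpo and Pax5 were lost. When the female library was also left out, the change of Pax5 turned to -1.18. Without intact replicate 3 or injured replicate 3 or 4 the test was not passed by Masp1. The call of Foxp3 did not hold without intact replicate 2. Mpo fell short of the threshold once intact replicate 2, 3 or 4 or injured replicate 3 or 4 was left out. Pax5 did not pass the test without intact replicate 3.

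Extracellular matrix genes changed in both directions. Of 41 collagens 17 rose and 11 fell (7 and 7 with the library set). The fibrillar collagen Col1a1 was read at 1845, 1931 and 1994 CPM in intact nerve and 4016, 4292 and 5028 CPM in injured nerve (log2 change 1.21, SE 0.14, adjusted p = 8.24e-06), Col5a2 changed by 1.57, Col18a1 by 1.71, and the cartilage collagen Col2a1 was at 10.9, 15.3 and 12.9 CPM in intact nerve and 100.0, 113 and 98.4 CPM in injured nerve (log2 change 2.99). Col4a1 and Col4a2, the network collagens of the basal lamina, fell (log2 change -0.72 and -0.73), as did Col23a1 (440.1, 438 and 546 CPM in intact nerve and 35.3, 33.4 and 29.3 CPM in injured nerve, log2 change -3.86), Col8a2 (-3.27), Col5a3 (-1.26) and Col24a1 (-4.22). Among laminins, other basal lamina proteins and their receptors, 4 of 28 rose and 13 fell (3 and 7 with the library set), with Itgb4, the laminin receptor chain of myelinating Schwann cells, at 1889, 1864 and 2072 CPM in intact nerve and 435, 487 and 378 CPM in injured nerve (log2 change -2.16, SE 0.16, adjusted p = 7.88e-08), Lamb1 changed by -0.90, Sgce by -0.88 and Agrn by -1.51. Fn1, fibronectin, rose from 604, 705 and 544 CPM to 1815, 2111 and 1753 CPM (log2 change 1.62), and Nid1 (0.78), the fibronectin receptor chain Itga5 (1.16) and Itgb1 (0.34) rose with smaller changes. The library set, entered as a term, ended the call of Itga5. The call of Itgb1 did not hold without intact replicate 2, 3 or 4 or injured replicate 2 or 4.

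Proteases, inhibitors and crosslinkers of the matrix rose for 15 of 32 members and fell for 7 (12 and 3 with the library set). Timp1, the inhibitor of metalloproteinases, was read at 7.12, 3.84 and 4.51 CPM in intact nerve and 166, 163 and 198 CPM in injured nerve (log2 change 5.10, SE 0.25, adjusted p = 8.07e-09). Plat, the tissue plasminogen activator, was at 117, 106 and 102 CPM in intact nerve and 284, 297 and 249.7 CPM in injured nerve (log2 change 1.36), Mmp14 changed by 1.41, Mmp17 by 1.44, Mmp19 by 1.31, Adam12 by 1.54 and Loxl2 by 1.54. Lox, lysyl oxidase, fell from 635, 409 and 588 CPM to 93.2, 54.2 and 66.7 CPM (log2 change -2.93, SE 0.38, adjusted p = 1.39e-04), and Mmp15 from 665, 589 and 585 CPM to 202, 178 and 191 CPM (-1.68). Mmp28 (-1.05) and Adamts5 (-0.66) fell less. Epineurial tissue, rich in fibroblasts and collagen, was removed from intact nerves only. Of 21 fibroblast markers 7 rose and 2 fell (4 and 1 with the library set), so that 42.9% were called against 44.7% of all genes. The summed level of these markers was 11480 to 13034 CPM in intact and 14557 to 15818 CPM in injured libraries. Thy1 (2.55), Lum (1.42) and Col3a1 (1.42) were among the fibroblast rises, and Mfap5 (-1.58) and Gsn (-0.79) were the falls. The part of the dissection in the collagen rises was not tested. After the library set was added as a term, the calls of Adamts5, Col3a1 and Gsn were lost. Gsn did not pass the test without intact replicate 2 or 3 or injured replicate 3 or 4.

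Axon guidance genes divided evenly, with 13 rises and 14 falls among 52, so that 51.9% were called against 44.7% of all genes. With the library set 4 rises and 9 falls were called. Sema4f, a semaphorin of injured Schwann cells, was read at 1.57, 1.07 and 0.713 CPM in intact nerve and 56.6, 44.1 and 60.9 CPM in injured nerve (log2 change 5.60, SE 0.46, adjusted p = 3.98e-06). Epha5 rose from 21.2, 18.8 and 20.03 CPM to 78.9, 66.2 and 79.5 CPM (log2 change 1.90), Robo2 by 1.70 and Efnb2 by 1.18. Sema5a fell from 418, 340.1 and 385 CPM to 39.3, 33.5 and 21.7 CPM (log2 change -3.59, SE 0.20, adjusted p = 1.02e-08), and Plxnb1 (-2.53), Sema4c (-2.07), Sema3b (-1.78) and Sema6d (-2.18) fell. Among 17 fetal and imprinted growth regulators 9 rose and 2 fell (5 and 0 with the library set). Hmga1, a chromatin protein of embryonic and tumour cells, was read at 17.8, 8.02 and 9.03 CPM in intact nerve and 195, 143 and 138 CPM in injured nerve (log2 change 3.78, SE 0.33, adjusted p = 6.09e-06), H19 at 229, 164 and 139 CPM in intact nerve and 748, 818 and 889.9 CPM in injured nerve (log2 change 2.21, SE 0.52, adjusted p = 0.00738), Hmga2 at 3.79, 4.79 and 3.90 CPM in intact nerve and 13.1, 8.83 and 11.3 CPM in injured nerve (log2 change 1.41, SE 0.26, adjusted p = 7.58e-04). Plagl1 changed by 1.34, Meg3 by 0.67 and Peg10 by 0.96. Igf2bp1 (-1.52) fell, as did Cdkn1c, given above. With a set term, the calls of H19 and Igf2bp1 were lost. There the change of Igf2bp1 turned to 0.035. The call of Igf2bp1 did not hold without intact replicate 2 or injured replicate 2 or 4.

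Markers of other cells moved in part with single libraries. Summed markers of the vessel wall ran from 1749 to 1927 CPM in intact and from 1426 to 4645 CPM in injured libraries, the highest being injured replicate 2, where Myh11 was at 881, 70.9 and 169 CPM across replicates 2, 3 and 4 and Acta2 at 1109, 134 and 269.5 CPM. Neither passed the test (adjusted p = 0.137 and 0.131). Skeletal muscle genes stood apart in injured replicate 4, with Mb at 2.48, 1.97 and 35.5 CPM and Myh4 at 0.544, 0.528 and 13.8 CPM over the injured libraries, and both did not pass (adjusted p = 0.0826 and 0.094). Fat cell genes were low in intact replicate 4, with Adipoq at 197, 205 and 68.6 CPM in intact nerve and 257, 274 and 337 CPM in injured nerve, and none of 13 was called. Red cell genes summed to 141 to 284 CPM in intact and 508 to 2018 CPM in injured libraries, without a call. Of 19 endothelial markers 1 rose and 6 fell (0 and 4 with the library set), among them the barrier genes Slco1a4 (27.5, 49.4 and 51.7 CPM in intact nerve and 1.96, 2.14 and 1.33 CPM in injured nerve, log2 change -4.53) and Cldn5 (-1.75), whereas Cdh5, the endothelial cadherin, was at 196, 185 and 179 CPM in intact nerve and 201, 197 and 177 CPM in injured nerve (adjusted p = 0.94). Sox17 also fell (-1.13), and Emcn was the 1 rise (0.85). Of 12 perineurial markers Crispld1 (2.63) and Krt23 (4.65) rose, and the tight junction gene Tjp1 (-1.21) and Itgb4, given above, fell. Itgb4 is also a gene of myelinating Schwann cells, so neither its fall nor the perineurial sum that includes it is specific to perineurial cells. Of 15 vessel wall markers Mcam (0.87) and Cnn1 (4.42) rose and Higd1b (-1.15) and Pdgfrb fell, and of 15 muscle markers Ttn (1.98), Tnni2 (3.68) and Neb (1.66) rose and Pvalb fell (-2.16). In the fit with the library set, the calls of Emcn, Cnn1, Higd1b, Ttn, Tnni2 and Neb were lost. Cnn1 did not pass the test without intact replicate 2, 3 or 4 or injured replicate 2. Without intact replicate 4 or injured replicate 2, 3 or 4 the test was not passed by Pvalb.

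**Figure D4:**
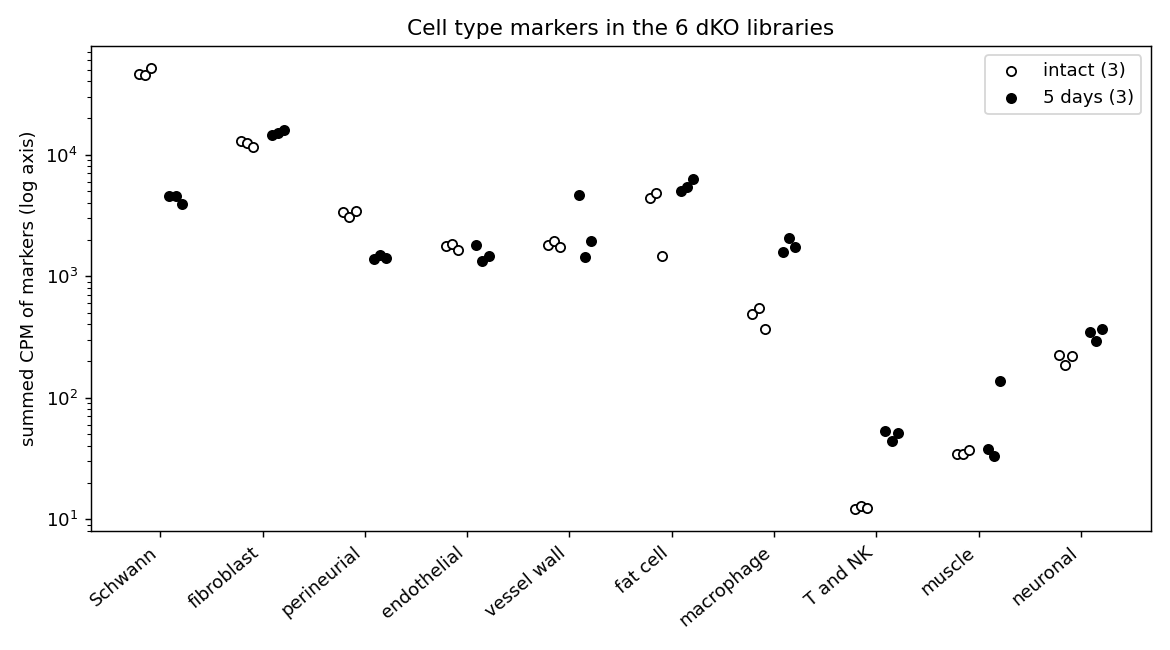
Summed CPM of the marker lists of 10 cell types on a log axis (y axis) in each dKO library, open circles for the 3 intact and filled circles for the 3 injured libraries. Macrophage sums are higher in all injured libraries, Schwann cell sums are lower in all, the vessel wall sum is high in injured replicate 2, the muscle sum in injured replicate 4, and the fat cell sum is low in intact replicate 4.

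The response of dKO nerve was then set against that of control nerve. Of the genes called in both genotypes 7493 changed in the same direction and 46 in opposite directions. The difference of the 2 injury changes (dKO minus control) passed the test for 650 genes (2.9%), 165 positive and 485 negative, and for 172 (0.768%) with the library set. All 3 injured dKO libraries are of the second set, against 1 of 3 injured control libraries, so the set also touches this difference. The difference was past the threshold for 15 myelin genes on the positive side and for 15 mitotic and 14 replication genes on the negative side. Counting only calls that stood with the library set, these were 12, 4 and 2.

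Of the 32 myelin genes the difference was positive for 15, Pmp22 among them, negative for 2, Aspa and Mtmr2 (which changed by -0.58 in dKO and 0.44 in control nerve, the former not called with the library set), and did not pass the test for the other 15. Pmp22 was read at 14316, 19274 and 15839.7 CPM in intact and 239, 230.0 and 269 CPM in injured control nerve, a change of -6.07 against -4.41 in dKO nerve, a difference of 1.65 (SE 0.21, adjusted p = 6.89e-04). Among genes with the largest positive differences under the naming rule, Ncmap, a protein of non-compact myelin, had a difference of 3.68 (SE 0.42, adjusted p = 8.81e-04), Spnb5, a beta spectrin, of 4.05 (SE 0.42, adjusted p = 4.56e-04), Cdh1, E-cadherin of the autotypic junctions, of 3.25 (SE 0.26, adjusted p = 1.38e-05) and Mag of 2.86 (SE 0.19, adjusted p = 2.75e-06). Pmp2, at 609.9, 960.3 and 684 CPM in intact and 69.9, 83.1 and 70.2 CPM in injured control nerve, changed by -3.34 in control and had a difference of 2.94 (SE 0.26, adjusted p = 2.32e-05). Myh6, a cardiac myosin heavy chain, had a difference of 4.50 (SE 0.44, adjusted p = 7.96e-05) and the model AC116720.1 of 3.17 (SE 0.41, adjusted p = 8.32e-04). In each of these every injured dKO library lay above every injured control library. Nptx2, a secreted pentraxin, differed in the size of its rise: it was read at 1.03, 0.823 and 0.950 CPM in intact nerve and 40.9, 42.8 and 38.9 CPM in injured nerve of dKO mice and at 1.13, 0.744 and 0.984 CPM in intact and 4.66, 3.21 and 4.52 CPM in injured control nerve, a difference of 3.35 (SE 0.30, adjusted p = 2.32e-05).

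Among the genes with a negative difference were some that rose in control nerve and less, or not at all, in dKO nerve, and others, such as Npc1 (-1.61 in dKO and -0.68 in control nerve), that fell further in dKO nerve. Lgals3 (chromosome 14, 47367751 to 47386160) was read at 31.6, 31.0 and 31.4 CPM in intact and 2367, 2243 and 2031 CPM in injured control nerve, a change of 6.14 against 2.12 in dKO nerve, with a difference of -4.02 (SE 0.15, adjusted p = 2.21e-09). Hmga2 had a difference of -3.97 (SE 0.36, adjusted p = 7.99e-05), Atp6v0d2 of -3.68 (SE 0.51, adjusted p = 0.00156), Pbk of -2.74 (SE 0.52, adjusted p = 0.0101), Fgfbp3, which releases FGFs from the matrix, of -2.93 (SE 0.26, adjusted p = 2.32e-05) and Gadd45b, a stress-induced gene, of -2.67 (SE 0.27, adjusted p = 7.78e-05). Fgfbp3 was at 3.90, 4.02 and 3.02 CPM in intact nerve and 5.5, 6.81 and 5.03 CPM in injured nerve of dKO mice and at 3.22, 2.44 and 3.37 CPM in intact and 36, 38.3 and 35.7 CPM in injured control nerve. Gadd45b was at 23.1, 12.5 and 17.1 CPM in intact nerve and 25.3, 18.6 and 25.5 CPM in injured nerve of dKO mice and at 12.4, 11.7 and 13.6 CPM in intact and 116, 95.5 and 106 CPM in injured control nerve. Gpnmb had a difference of -2.04 (SE 0.26, adjusted p = 6.94e-04), Psap of -1.84 (SE 0.17, adjusted p = 2.34e-05) and Lipa of -1.75 (SE 0.14, adjusted p = 1.09e-05), so that lysosomal genes that did not pass in dKO nerve had risen in control nerve, by 2.11 and 1.90. Among genes of other lists the difference was -0.82 (SE 0.18, adjusted p = 0.0211) for Jun, -2.02 (SE 0.32, adjusted p = 0.00469) for Atf3, -1.15 (SE 0.24, adjusted p = 0.0179) for Ngfr, -1.31 (SE 0.22, adjusted p = 0.00442) for Sox2 and -1.15 (SE 0.19, adjusted p = 0.00408) for Mki67. Shh rose further in dKO nerve, with a difference of 1.13 (SE 0.28, adjusted p = 0.0463). The difference, in the fit with the library set, did not pass the test for Jun, Atf3, Ngfr, Sox2 and Shh.

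Some genes moved in opposite directions. Foxq1 (chromosome 13, 31556134 to 31560976), a forkhead factor, was read at 2.68, 4.33 and 3.60 CPM in intact nerve and 0.846, 0.861 and 2.14 CPM in injured nerve of dKO mice, a fall (log2 change -1.55), and at 2.49, 3.68 and 3.02 CPM in intact and 34.7, 36.4 and 35.8 CPM in injured control nerve, a rise of 3.54. The difference was -5.09 (SE 0.43, adjusted p = 1.74e-05), and injured libraries of the genotypes lay far apart. Eef1a2, the elongation factor of neurons and muscle, was at 13.6, 12.1 and 12 CPM in intact nerve and 1.78, 1.14 and 3.81 CPM in injured nerve of dKO mice and at 13.1, 14.4 and 11.9 CPM in intact and 32.5, 61.9 and 56.4 CPM in injured control nerve, a difference of -4.50 (SE 0.48, adjusted p = 3.26e-04). Hbegf was at 100.5, 118 and 102 CPM in intact and 36.7, 35.6 and 27.0 CPM in injured control nerve, a change of -1.69 where dKO nerve showed a rise, and the difference was 2.56 (SE 0.18, adjusted p = 4.25e-06). Gjb1 was at 151, 200.4 and 177 CPM in intact and 161, 115 and 95.3 CPM in injured control nerve, a difference of 1.21 (SE 0.23, adjusted p = 0.0108). Aspa, which splits N-acetylaspartate, was at 152, 162 and 217 CPM in intact nerve and 76.6, 55.8 and 79.4 CPM in injured nerve of dKO mice and at 178, 267 and 191 CPM in intact and 384, 425 and 359 CPM in injured control nerve, a difference of -2.20 (SE 0.26, adjusted p = 3.37e-04). With the library set in the model the fall of Foxq1 in dKO nerve was not called, but its difference between genotypes still passed the test (adjusted p = 4.05e-04).

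**Figure D5:**
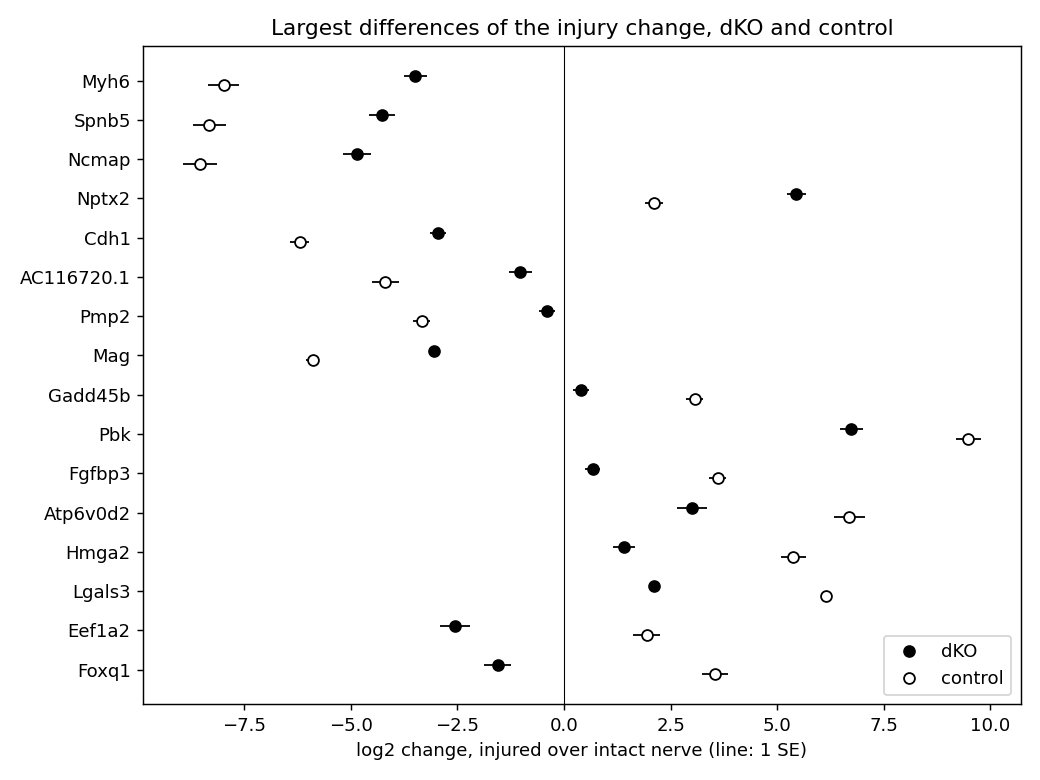
Log2 change after transection in dKO nerve (filled circles) and in control nerve (open circles) on the x axis, with lines of 1 SE, for the 16 genes with the largest differences of the injury changes under the naming rule (rows), 8 positive above and 8 negative below. Foxq1 and Eef1a2 lie on opposite sides of 0 in the 2 genotypes.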

How the data were processed

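RNA of sciatic nerve was measured in 12 libraries, 4 groups of 3, sequenced from polyA RNA with an Ion Total RNA-Seq kit per the labels' protocols. The authors deposited a table of raw counts per gene model and a table of normalized values, a signal on the scale of counts. The deposited normalized values are the counts divided by 1 size factor per library (the ratio is constant within 0.0685%). The submitters' processing notes name DESeq2, R 4.2.1 and mm10. Aligner, counter and strand use were not given in the sources used here. Overlapping and antisense genes and near-identical copies may share reads. Of 38087 gene models, 278 symbols stand on several lines, which were kept apart.

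Raw counts were tested in edgeR 4.0.16 (R 4.3.3) with TMM factors, filterByExpr at a minimum count of 10, and robust quasi-likelihood fits of 4 group means over 12 libraries, which left 22384 genes. Replicates are biological per the series' design text. For a single gene an exact permutation test of 3 against 3 could not go below 0.1. Checked by chi-square, replicates differed beyond sampling noise (chi-square per degree of freedom 19.5 to 25.97). The scripts were tested on simulated data. Genes named are the 15 largest rises and 15 largest falls called both with and without the library set term, whose mean is at least 3 on the log2 CPM scale and whose groups do not overlap (predicted models left out), up to 4 called members of each list and direction with the smallest p, the 8 largest positive and 8 largest negative differences called in both fits, and a few marker genes and list members that complete a pathway. Some genes under this rule are not reported here. Members, lists and rules were chosen with earlier results of these data known. Alternatives were other tools, scalings, filters and thresholds, a term for the library set, a replicate block, the 6 dKO libraries alone and leaving out each library. Promoters are from RefSeq (GRCm38.p6), and gene positions from GENCODE M21 (GRCm38, the assembly that mm10 also names).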

Additional observations from a re-analysis of the deposited data

Results flagged for a closer look

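The log2 change after transection differed between dKO and control nerve for 84 of the 413 tested genes named above, against 2.9% of all genes, and 16 of the named genes were named because their difference was among the largest. The others were also chosen with results of these data known, many for a large or clear injury change. Their share is therefore no fair contrast with that of all genes. It was tested as an interaction in edgeR (difference of injury changes, dKO minus control, Benjamini-Hochberg adjusted p under 0.05 over all tested genes). The difference was positive for 34 and negative for 50 of them. It also passed the test with the library set in the model for 42. No cause was tested.

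On the positive side, the difference of injury changes among myelin and node genes was 3.68 for Ncmap, 2.94 for Pmp2, 2.86 for Mag, 2.81 for Prx, 2.71 for Fa2h, 2.31 for Drp2, 2.23 for Cldn19, 1.89 for Cadm3, 1.65 for Pmp22, 1.42 for Egr2, 1.21 for Gjb1, 1.20 for Mbp, 1.00 for Dusp15 and 0.88 for Ndrg1. Among injury factors, ligands, receptors and glial markers it was 2.56 for Hbegf, 1.55 for Dhh and 1.13 for Shh. Among matrix genes it was 1.55 for Col2a1, 1.30 for Col23a1 and 0.81 for Col5a3. Among stress response genes it was 1.09 for Pycr1, 1.07 for Asns and 0.53 for Aldh18a1. Among other named genes it was 4.50 for Myh6, 4.30 for Fgf4, 4.05 for Spnb5, 3.35 for Nptx2, 3.25 for Cdh1, 3.17 for AC116720.1, 2.59 for Ddn, 2.41 for Lect1, 1.75 for Cthrc1, 1.67 for Crispld1 and 1.6 for Ccdc37. These differences fell short of the threshold with the library set in the model: Fgf4, Fa2h, Ddn, Lect1, Crispld1, Ccdc37, Egr2, Col23a1, Shh, Pycr1, Asns, Dusp15, Col5a3 and Aldh18a1.

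On the negative side, the difference of injury changes among myelin and node genes was -1.02 for Mtmr2, -1.15 for Nrcam and -2.20 for Aspa. Among cell cycle genes it was -1.0 for Mcm5, -1.15 for Mki67, -1.20 for Prc1, -1.54 for Foxm1, -1.56 for E2f1, -1.67 for Racgap1 and -1.69 for Rrm2. Among lysosomal, proton pump, autophagy and lipid-handling genes it was -0.56 for Atp6v0d1, -0.56 for Atp6v0e2, -0.56 for Gusb, -0.59 for Ctsa, -0.71 for Hexa, -0.74 for Ctsd, -0.75 for Sqstm1, -0.89 for Atp6v0b, -0.93 for Npc1, -1.03 for Atp6v1b2, -1.52 for Abca1, -1.61 for Gla, -1.75 for Lipa, -1.84 for Psap, -2.04 for Gpnmb, -3.68 for Atp6v0d2 and -4.02 for Lgals3. Among injury factors, ligands, receptors and glial markers it was -0.74 for Notch1, -0.82 for Jun, -1.03 for Clcf1, -1.15 for Ngfr, -1.23 for Cdh2, -1.25 for Vim, -1.31 for Sox2, -1.32 for Fosl1, -1.36 for Uchl1, -1.40 for Epha5, -1.62 for Met, -2.02 for Atf3 and -3.97 for Hmga2. Among matrix genes it was -0.97 for Mmp17 and -1.39 for Adamts5. Among other named genes it was -0.82 for Pros1, -0.98 for Tgfb1, -1.23 for Steap3, -2.67 for Gadd45b, -2.74 for Pbk, -2.93 for Fgfbp3, -4.50 for Eef1a2 and -5.09 for Foxq1. These differences fell short of the threshold with the library set in the model: Atp6v0d1, Atp6v0e2, Gusb, Ctsa, Hexa, Ctsd, Notch1, Sqstm1, Pros1, Jun, Npc1, Mmp17, Tgfb1, Mcm5, Clcf1, Ngfr, Nrcam, Prc1, Cdh2, Steap3, Sox2, Fosl1, Adamts5, Abca1, E2f1, Met, Rrm2 and Atf3.

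For 8 of these genes both genotypes passed their own test and moved in opposite directions. The changes in dKO and in control nerve were 0.87 and -1.69 for Hbegf, 0.71 and -0.51 for Gjb1, -0.31 and 0.44 for Notch1, -0.58 and 0.44 for Mtmr2, -0.66 and 0.73 for Adamts5, -1.33 and 0.88 for Aspa, -2.56 and 1.93 for Eef1a2 and -1.55 and 3.54 for Foxq1. The dKO change of Notch1 turned to a positive value (0.069) in the fit with the library set.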

How the results depend on the processing

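The counts of genes after transection in dKO nerve, 4930 higher and 5067 lower, were lower with the library set and with stricter thresholds. The library set as a term gave 2146 higher and 2153 lower, and the same without the female injured control library gave 1654 and 1842. A tested minimum log2 change of 1 gave 1002 and 1044, and an adjusted p under 0.01 gave 3097 higher. Leaving out each of the 6 dKO libraries in turn gave 3729 to 4280 higher and 4385 to 4785 lower. DESeq2, limma-voom, other size factors, other filters, the authors' normalized values and the 6 dKO libraries alone stayed within 1.5 times, between 4434 and 6246 higher and between 4044 and 5700 lower.

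The difference of injury changes between genotypes was less stable. The counts were 165 positive and 485 negative. DESeq2 gave 358 and 738, a minimum log2 change of 1 gave 22 and 20, an adjusted p under 0.01 gave 81 and 177, the library set gave 75 and 97 and, without the female library, 90 and 100. Upper-quartile factors gave 296 negative. Leaving out 1 library gave 101 to 368 positive and 251 to 908 negative. The positive count moved by over 1.5 times without intact dKO replicate 3 (108), injured dKO replicate 3 (101) or injured control replicate 4 (368). The negative count did so without intact control replicate 3 (292), intact dKO replicate 2 (260) or 4 (314), injured dKO replicate 3 (251), and injured control replicate 2 (316) or 4 (908). The causes were not tested. Injured control replicate 4 is the only injured control library of the second set. Without it the second set holds injured dKO libraries only, so the set and this difference cannot be told apart.

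The labels do not say whether nerves with the same replicate number come from 1 animal, and no pairing was used. The correlations of same-numbered deviations in dKO nerve were 0.118, 0.100 and -0.0131 for numbers 2, 3 and 4, and injured replicate 4 correlated best with intact replicate 3 (0.0398). With the replicate number as a block, 4357 genes were higher and 4763 lower, and the difference passed for 89 positive and 201 negative genes.

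Of 387 genes called in the text, 307 kept direction and call with the library set, 77 kept the direction only and 3 turned, to -0.10 for Cntnap2, 0.035 for Igf2bp1 and 0.069 for Notch1. Without the female library as well, 283 kept the call and 2 turned, to -1.18 for Pax5 and -0.22 for Syt1. DESeq2 and its size factors in edgeR lost 1 call each (Sel1l), limma-voom 5 (Cnn1, Gzmb, Mpo, Oas1a and Oas3) and the authors' normalized values 5 (Clock, Cnn1, Cntnap2, Mpo and Oas3). Upper-quartile factors, which move the median of all genes from 0.05 to 0.19 on the log2 scale, lost 10 calls (Atp6v0d1, Gsn, Idh3g, Masp1, Mertk, Ndufb4, Ndufv3, Notch1, Pdha1 and Sel1l). The unfiltered fit lost 8 (Atp6v0b, Clock, Cnn1, Cntnap2, Itgb1, Mpo, Oas3 and Sesn3), the stricter filter 2 (Notch1 and Sel1l), the 6 dKO libraries alone 2 (Cnn1 and Gpnmb) and the replicate block 13. Genes with few reads are limited by depth, so a call that was not made for them is not evidence of no change.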
